A study of Homo sapiens with 5 samples.

Results

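The TRIM family was examined in RPE1 cells treated with doxorubicin. Its members were taken as every gene of the deposited count table whose symbol is TRIM followed by digits alone, which gave 66 of 26485 genes. RPE1 is an established, immortalised line of human retinal pigment epithelial cells, and doxorubicin is an anthracycline used in chemotherapy that intercalates into DNA and inhibits topoisomerase II. RNA-seq of poly-A RNA was performed on 5 libraries of cells of WT genotype kept for 18 h in drug or vehicle, namely 2 libraries in DMSO, 2 in doxorubicin at 0.2 μM and 1 in doxorubicin at 0.34 μM. The doses are those of the sample titles, whereas the treatment text of the labels gives 200 and 340 μM. The libraries are replicate cultures of a single line, so the spread between them does not cover differences between lines or donors.

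TRIM proteins are named for a tripartite motif of a RING finger, one or more B-boxes and a coiled coil. The RING finger lets most of them act as E3 ubiquitin ligases, and the C-terminal domain, most often a PRY-SPRY domain, selects the target. Members are known for restricting viruses and tuning interferon signalling, for co-repressing transcription on chromatin (the TIF1 class), for degrading or stabilising p53, and for roles at the centrosome and in striated muscle.

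The libraries held between 23773061 and 36725345 counts on genes. Of 5 p53 target genes used as a check, 5 were higher after doxorubicin by edgeR, and of 5 genes of mitosis 5 were lower. The p53 genes included CDKN1A, the p21 cell cycle inhibitor, with a log2 fold change of 3.39, and the mitotic genes included the kinase PLK1, with -5.53. Of the markers of mature pigment epithelium, the visual cycle enzyme RPE65 had 3 to 8 counts and tyrosinase (TYR) had 0 to 5. RLBP1 had at most 3 counts, TTR at most 1 and SERPINF1 at most 29. BEST1 had 26 and 14 counts in DMSO, 86 and 30 at 0.2 μM and 142 at 0.34 μM. PMEL had 7 and 5 counts in DMSO, 22 and 32 at 0.2 μM and 46 at 0.34 μM. The pigment lineage factors MITF (29.1 to 56.7 CPM, counts scaled to library size) and OTX2 (23.5 to 29.4 CPM) were present. So were the epithelial keratins KRT8 (346 to 661 CPM) and KRT18 (238 to 515 CPM) and the mesenchymal filament VIM (4711 to 5805 CPM). Of markers the culture should lack, CD3E had no count, MYH7 had at most 1 and PECAM1 at most 13, whereas PTPRC had 5 and 7 counts in DMSO and 25, 53 and 72 after doxorubicin. Summed over these 4 markers, the libraries held 8 and 13 counts in DMSO and 32 to 86 after doxorubicin, and the part of such counts in the results was not tested.

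Of the 66 TRIM genes, 56 had at least 1 count and 40 had enough counts to be tested. The 26 others never exceeded 13 counts in a library. Among these, 10 had no count in any library: TRIM10, TRIM15, TRIM48, TRIM49, TRIM51, TRIM58, TRIM64, TRIM71, TRIM73 and TRIM74. Of these, TRIM48, TRIM49, TRIM51, TRIM64, TRIM73 and TRIM74 have near-identical copies in the genome, so that their reads may not be placed uniquely. A count of 0 allows up to 3 counts, which is 0.0817 to 0.126 CPM depending on the library, for counting error alone. TRIM71, the NHL-domain repressor of mRNAs in pluripotent cells, was thus below detection at this depth. TRIM63, the muscle ligase MuRF1, had 0 and 2 counts in DMSO, 0 and 1 at 0.2 μM and 1 at 0.34 μM. Of the 4 members of striated muscle (TRIM54, TRIM55, TRIM63 and TRIM72), TRIM55 alone was tested, with 8 and 9 counts in DMSO, 10 and 11 at 0.2 μM and 26 at 0.34 μM. Its log2 fold change was 0.67 with a standard error of 0.51 (edgeR adjusted p of 0.419).

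Levels of different genes were compared as CPM per kb of the canonical transcript. On that scale the 5 highest members in DMSO were TRIM28 (92.4), TRIM8 (79.2), TRIM22 (27.1), TRIM44 (18.6) and TRIM27 (18.2). After doxorubicin the mean of TRIM22 stood at 110, above TRIM28 at 90.3 and TRIM8 at 83.5, with TRIM27 at 18.6 and TRIM44 at 15.1. That order did not hold in every library. In the first 0.2 μM library TRIM28 (307 CPM, 3364 bp) stood above TRIM22 (258 CPM, 2888 bp) on this scale. The order of TRIM28 and TRIM8 in DMSO did not exceed the spread of TRIM28, whose 2 DMSO libraries held 208 and 413 CPM. Summed over all members, the family took 1762 and 1952 CPM in DMSO, 2022 and 2192 at 0.2 μM and 2090 at 0.34 μM. Without TRIM22 the sums were 1674 and 1883, then 1764 and 1802, then 1788 CPM, so that the groups overlapped. TRIM22 itself made up 4.96% and 3.53% of the family's sum in DMSO and 12.8%, 17.8% and 14.5% after doxorubicin.

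Next, each member was compared between the 3 doxorubicin libraries and the 2 DMSO libraries. TRIM22, TRIM3 and TRIM32 were higher after doxorubicin at an adjusted p under 0.01 in edgeR, by 4.05-fold, 2.99-fold and 1.93-fold. They are 7.5% of the 40 members tested, beside 1.29% of all 14187 genes tested that were called higher. No member was called lower in edgeR, where 2.73% of all genes were, although 9 members (22.5%) had an unadjusted p under 0.05 in either direction, against 30.8% of all genes. In DESeq2, 4 members (10%) were higher, the same 3 genes and TRIM35, and 1 member (2.5%), TRIM59, was lower. Of all genes, DESeq2 called 6.53% higher and 8.00% lower. In 12 members (30%) every doxorubicin library exceeded both DMSO libraries and in 8 (20%) every one lay below, beside 24.3% and 23.4% of all genes. The share called higher in edgeR rests on 3 genes, and leaving out single libraries left 0 or 1 of them.

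The typical member moved little. The log2 fold change was positive in 21 members and negative in 19, with a median of 0.05 and a range from -1.21 to 2.02, and the median over all genes was 0.013. It was smaller than 0.5 in size in 29 of 40 members (72.5%), compared with 61.3% of all genes. The median size was 0.30 in the family and 0.38 over all genes. The 2 DMSO libraries differed from each other by a median of 0.26 among the members and 0.36 over all genes. That difference is between single libraries, whereas the fold changes compare group means, which vary less, so the 2 sizes are not directly comparable.

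**Figure D1:**
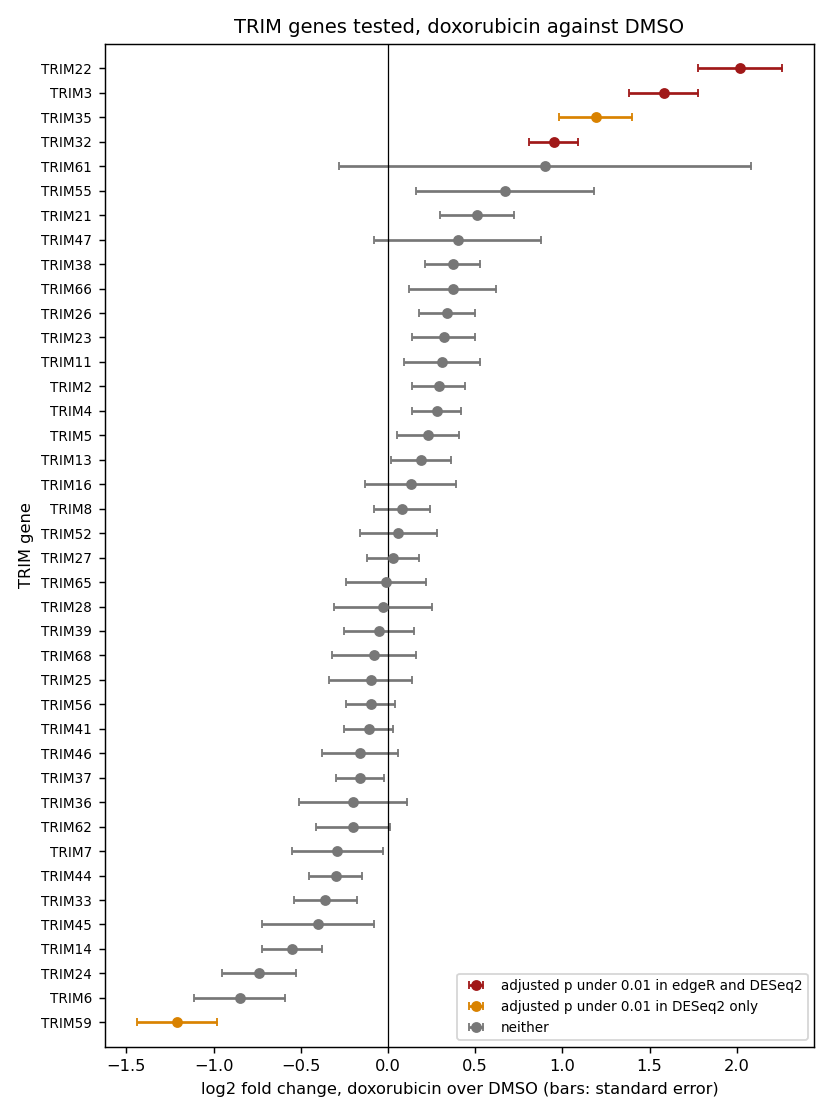
Log2 fold change of doxorubicin over DMSO (x axis) of the 40 TRIM genes tested (y axis, sorted), with bars of 1 standard error from edgeR and colours for the genes called in edgeR and DESeq2, in DESeq2 alone or in neither. TRIM22, TRIM3 and TRIM32 carry the edgeR calls, TRIM35 and TRIM59 are called in DESeq2 alone, and 29 genes lie within 0.5 of 0.

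TRIM22, an interferon-inducible antiviral ligase that is also a p53 target, showed the largest change of the family. Its level was 87.4 and 69.0 CPM in DMSO, 258 and 390 CPM at 0.2 μM and 302 CPM at 0.34 μM. The groups were far apart, and the lowest doxorubicin library was above the highest DMSO library. The means were 78.2 ± 13.0 CPM (SD, n = 2) and 317 ± 67.4 CPM (SD, n = 3), with a log2 fold change of 2.02, a standard error of 0.24 and an edgeR adjusted p of 0.00377. The DESeq2 adjusted p was 6.11e-15. Without the first 0.2 μM library the edgeR adjusted p was 0.00736, and leaving out any of the other 4 libraries put it above 0.01, at up to 0.0271, with log2 fold changes of 1.84 to 2.19 throughout. An annotated lncRNA, LOC124902620, overlaps TRIM22 and its counts were not analysed here.

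TRIM3, an NHL-domain ligase known as a growth suppressor in brain, was expressed at 11.8 and 14.1 CPM in DMSO, 32.4 and 39.9 CPM at 0.2 μM and 43.7 CPM at 0.34 μM. The groups did not overlap. The mean rose from 12.9 ± 1.61 CPM (SD, n = 2) to 38.7 ± 5.76 CPM (SD, n = 3), a log2 fold change of 1.58 with a standard error of 0.20 (edgeR adjusted p of 0.00544). TRIM32, an NHL-domain ligase that targets p53 and is itself a p53 target, was expressed at 42.6 and 43.6 CPM in DMSO, 81.2 and 80.7 CPM at 0.2 μM and 88.3 CPM at 0.34 μM. This was the tightest change of the 3, with means of 43.1 ± 0.669 CPM (SD, n = 2) and 83.4 ± 4.23 CPM (SD, n = 3). On the log2 scale it rose by 0.95 with a standard error of 0.14 (edgeR adjusted p of 0.00789). Both calls were lost when any single library was left out, with log2 fold changes of 1.45 to 1.70 for TRIM3 and 0.91 to 0.98 for TRIM32 and adjusted p-values from edgeR of 0.0138 to 0.0275 and 0.0200 to 0.0599.

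TRIM59, a transmembrane ligase with reported roles in cell proliferation, had the largest fall. It was expressed at 51.4 and 63.0 CPM in DMSO, 23.5 and 31.1 CPM at 0.2 μM and 19.6 CPM at 0.34 μM, and the groups did not overlap. The mean went from 57.2 ± 8.23 CPM (SD, n = 2) to 24.8 ± 5.86 CPM (SD, n = 3). Its log2 fold change of -1.21 had a standard error of 0.23 and missed the threshold in edgeR (adjusted p of 0.0184), while the DESeq2 adjusted p was 5.92e-05. Genes of mitosis were lower in the same libraries, and in bulk RNA a smaller share of cells that express a gene and less of its RNA per cell cannot be told apart. A read-through transcript, TRIM59-IFT80, overlaps TRIM59, and the neighbouring IFT80 had a log2 fold change of -0.20 with a standard error of 0.17.

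The promoters of 29 of the 40 members tested were found in the RefSeq table (GRCh38.p14), and those of TRIM3, TRIM32 and TRIM59 are shown because these members carry the calls. TRIM22 and TRIM35, which were also called, had no entry. Each sequence runs from 250 bases before the start of the gene to 50 bases after it, on the strand of the gene, and capitals mark matches on either strand to CCAAT, to the GC box GGGCGG or to TTCGAA, a variant of the cell cycle homology region found in promoters of mitotic genes. The regions are chr11:6474410-6474709 (minus strand) for TRIM3, chr9:116687055-116687354 (plus strand) for TRIM32 and chr3:160449737-160450036 (minus strand) for TRIM59.
TRIM3: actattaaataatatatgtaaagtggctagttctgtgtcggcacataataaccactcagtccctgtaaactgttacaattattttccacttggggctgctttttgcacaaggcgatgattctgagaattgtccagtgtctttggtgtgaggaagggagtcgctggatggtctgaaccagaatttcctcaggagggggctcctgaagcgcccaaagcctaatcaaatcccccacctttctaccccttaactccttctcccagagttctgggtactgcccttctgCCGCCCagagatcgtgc
TRIM32: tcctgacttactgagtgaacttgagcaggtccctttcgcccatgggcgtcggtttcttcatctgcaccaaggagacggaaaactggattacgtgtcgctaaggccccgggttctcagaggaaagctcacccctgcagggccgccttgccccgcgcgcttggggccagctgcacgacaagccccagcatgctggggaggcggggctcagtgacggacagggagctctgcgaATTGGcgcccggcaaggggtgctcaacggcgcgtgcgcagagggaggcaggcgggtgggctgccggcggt
TRIM59: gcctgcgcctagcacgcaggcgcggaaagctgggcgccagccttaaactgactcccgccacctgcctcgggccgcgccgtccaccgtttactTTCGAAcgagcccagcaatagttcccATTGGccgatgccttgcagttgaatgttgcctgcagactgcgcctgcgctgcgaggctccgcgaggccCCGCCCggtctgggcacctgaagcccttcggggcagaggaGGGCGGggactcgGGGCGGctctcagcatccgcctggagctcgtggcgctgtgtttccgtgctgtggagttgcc

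TRIM3 held a single GC box, after its start. TRIM32 held a CCAAT box 20 bases before its start. TRIM59 held the TTCGAA variant 158 bases, a CCAAT box 132 bases and GC boxes 64, 24 and 11 bases before its start. TTCGAA occurred in 1 of the 29 members, namely TRIM59, and in 1.45% of all 27305 promoters and 1.65% of the 10362 promoters of tested genes. The sequence TTTGAA, the usual cell cycle homology region, was in 3 members, in 15.4% of all promoters and in 9.79% of those of tested genes. CCAAT was in 11 members and 35.7% of promoters, or 36.5% of those of tested genes, and GGGCGG in 20 members and 44.6% of promoters, or 68.8% of those of tested genes. A p53 half-site was matched in 1 member, TRIM21, in 6.54% of promoters and in 5.21% of those of tested genes. TRIM8, TRIM22 and TRIM24, which have been reported as p53 targets, had no promoter entry and were not searched. In the 3 promoters shown no match overlapped another. A match describes the letters of this window alone.

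Members linked to p53 are TRIM8, TRIM22, TRIM24 and TRIM32, which have been reported as its targets. Of these 4, TRIM22 and TRIM32 were called higher in edgeR and in DESeq2, which called 1.29% and 6.53% of all genes higher. TRIM8 and TRIM24 were called in neither tool. The log2 fold changes of the 4 ran from -0.74 to 2.02, with a median of 0.51. TRIM8, which stabilises p53, was at 218 and 219 CPM in DMSO, 246 and 196 CPM at 0.2 μM and 249 CPM at 0.34 μM. Its groups overlapped, and the log2 fold change was 0.08 with a standard error of 0.16. TRIM24, a TIF1 ligase that degrades p53, was at 43.9 and 35.3 CPM in DMSO, 19.6 and 28.8 CPM at 0.2 μM and 22.8 CPM at 0.34 μM. Its groups did not overlap, but the log2 fold change of -0.74 (standard error 0.21) did not pass the threshold, with an adjusted p of 0.0646 in edgeR and 0.0156 in DESeq2.

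**Figure D2:**
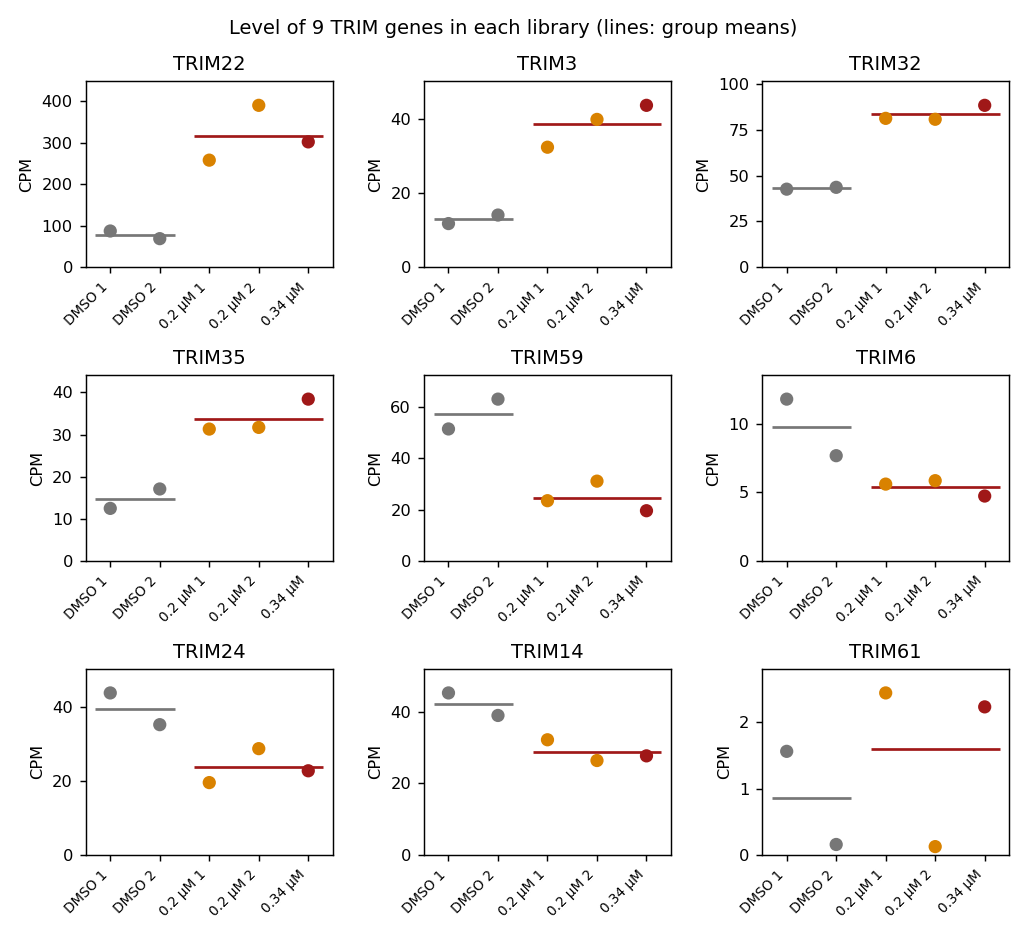
CPM (y axis, from 0) of 9 TRIM genes in each of the 5 libraries (x axis), with points coloured by treatment and lines at the mean of the 2 DMSO and the 3 doxorubicin libraries. The groups are apart in TRIM22, TRIM3, TRIM32, TRIM35, TRIM59, TRIM6, TRIM24 and TRIM14, whereas TRIM61 differs between libraries of the same treatment.

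The TIF1 class (TRIM24, TRIM28, TRIM33 and TRIM66) binds chromatin through PHD and bromodomains. None of its 4 members was called, and their log2 fold changes lay between -0.74 and 0.37. TRIM28, the KAP1 corepressor of zinc finger proteins and endogenous retroelements, was at 208 and 413 CPM in DMSO, 307 and 304 CPM at 0.2 μM and 300.0 CPM at 0.34 μM. The 3 doxorubicin libraries agreed closely and lay between the DMSO libraries, so that the log2 fold change of -0.03 (standard error 0.28) became 0.53 without the second DMSO library and -0.45 without the first. TRIM33, which limits SMAD4, was at 86.2 and 66.0 CPM in DMSO, 55.3 and 66.4 CPM at 0.2 μM and 55.9 CPM at 0.34 μM, with overlapping groups and a log2 fold change of -0.36 (standard error 0.18). TRIM66 was at 7.40 and 5.05 CPM in DMSO, 8.31 and 8.23 CPM at 0.2 μM and 7.63 CPM at 0.34 μM. The groups did not overlap but came close, and the difference was 0.37 on the log2 scale (standard error 0.25). TRIM66 had 129 to 277 counts and overlaps RPL27A, which lies on the opposite strand and had 12629 to 17913 counts. Whether the counting used strand is not stated, and the part of shared reads was not tested.

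Among 10 partners of the TRIM28 corepressor, 2 were called lower in edgeR and 6 in DESeq2, beside 2.73% and 8.00% of all genes. None of the 10 was called higher. The log2 fold change was negative in 9 of them, beside 48.9% of all genes, with a median of -0.62. The 2 called in edgeR were heterochromatin protein genes. CBX5 fell from 570 ± 70.4 CPM (SD, n = 2) to 198 ± 26.9 CPM (SD, n = 3), by 1.52 on the log2 scale with a standard error of 0.18 (edgeR adjusted p of 0.00384). CBX1 fell from 199 ± 37.6 to 88.7 ± 4.13 CPM (SD, the same n), by 1.17 on the log2 scale with a standard error of 0.16 (edgeR adjusted p of 0.0069). Both calls were lost when any single library was left out, with edgeR adjusted p-values of 0.0109 to 0.0208 for CBX5 and 0.0129 to 0.0422 for CBX1. The histone methyltransferase SETDB1 had a log2 fold change of 0.14 with a standard error of 0.15.

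The members listed here as interferon-induced or antiviral are TRIM5, TRIM14, TRIM21, TRIM22, TRIM25, TRIM34, TRIM38, TRIM56 and TRIM69, and the list is not complete. Of these 9, 7 were tested, TRIM22 was called higher and no other member passed the threshold in either tool. The median log2 fold change of the 7 was 0.23, with 4 positive and 3 negative. TRIM6, an antiviral ligase described below, was not on this list and had a log2 fold change of -0.85. TRIM21, a cytosolic antibody receptor, was at 20.3 and 13.6 CPM in DMSO, 24.3 and 23.0 CPM at 0.2 μM and 25.1 CPM at 0.34 μM. The groups did not overlap, but the log2 fold change of 0.51 (standard error 0.21) did not pass, with an edgeR adjusted p of 0.159. TRIM38, a regulator of innate signalling, was at 29.5 and 29.3 CPM in DMSO, 35.1 and 42.4 CPM at 0.2 μM and 36.7 CPM at 0.34 μM. The groups were apart, and the log2 fold change of 0.37 (standard error 0.16) again did not pass (edgeR adjusted p of 0.172).

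TRIM5, a restriction factor that binds retroviral capsids, was at 55.5 and 46.4 CPM in DMSO, 52.5 and 70.2 CPM at 0.2 μM and 57.1 CPM at 0.34 μM. TRIM25, the ligase of the RNA sensor RIG-I, was at 74.0 and 111 CPM in DMSO, 76.6 and 106 CPM at 0.2 μM and 75.2 CPM at 0.34 μM. The groups overlapped in both, with log2 fold changes of 0.23 (standard error 0.18) and -0.10 (standard error 0.24). TRIM14, an adaptor of mitochondrial antiviral signalling, was lower in every doxorubicin library, at 45.3 and 39.0 CPM in DMSO, 32.2 and 26.4 CPM at 0.2 μM and 27.7 CPM at 0.34 μM. Its log2 fold change of -0.55 (standard error 0.17) did not pass, with an adjusted p of 0.0739 in edgeR and 0.0240 in DESeq2. TRIM14 overlaps NANS, which lies on the opposite strand and had 2402 to 3672 counts, and the part of shared reads was not tested.

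Of 11 interferon-stimulated genes outside the family, none passed in edgeR. In DESeq2, which called 6.53% of all genes higher, 2 were higher. These were ISG15 and STAT2, with log2 fold changes of 1.83 and 1.01 and edgeR adjusted p-values of 0.0220 and 0.0127. Among the others, IFIT3, IFIT2, IFIT1 and MX1 had log2 fold changes of 0.65, 0.58, -0.16 and -0.24 with standard errors of 0.26, 0.23, 0.20 and 0.51. Of 11 genes of RNA and DNA sensing, 10 were tested and none passed in edgeR. With 6.53% of all genes called higher in DESeq2, 2 of the 10 were. These were TMEM173, which encodes STING, at 1.14 and DHX58 at 0.90 on the log2 scale.

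The interferon-stimulated response element, searched on both strands as its core GAAANNGAAA, was matched in 7 of the 29 member promoters, in 3.65% of all promoters and in 2.97% of those of tested genes. The match is shown with 10 bases on each side, in capitals, to set it beside the changes of these genes. The windows lie at chr11:4393660-4393695 for TRIM21, chr11:5685082-5685111 for TRIM5, chr9:98119229-98119258 for TRIM14, chr6:30213575-30213610 for TRIM26, chr4:153151936-153151965 for TRIM2, chr11:35662730-35662759 for TRIM44 and chr17:15683012-15683041 for TRIM16 (GRCh38.p14). TRIM2 and TRIM44 lie on the plus strand, and the others on the minus strand.
TRIM21: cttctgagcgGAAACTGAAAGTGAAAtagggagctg
TRIM5: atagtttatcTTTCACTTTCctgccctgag
TRIM14: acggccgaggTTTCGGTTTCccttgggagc
TRIM26: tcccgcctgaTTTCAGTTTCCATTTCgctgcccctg
TRIM2: aataaatagaGAAAAGGAAAtaagccgaag
TRIM44: tcctgacgggGAAAGGGAAAgtggaaccgg
TRIM16: acagaggtaaGAAATAGAAAtaaagggtcc

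TRIM21 and TRIM26 each held 2 overlapping cores. None of these 7 genes was called in either tool. Their log2 fold changes were 0.51 for TRIM21, 0.34 for TRIM26, 0.29 for TRIM2, 0.23 for TRIM5, 0.13 for TRIM16, -0.30 for TRIM44 and -0.55 for TRIM14. TRIM16 shares sequence with TRIM16L, so that reads between this pair are uncertain. Both signs occurred among the members that hold the core.

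Of the 4 NHL-domain members, TRIM2, TRIM3 and TRIM32 were tested, all with a positive log2 fold change and a median of 0.95. TRIM2, a neuronal ligase, was at 36.6 and 35.3 CPM in DMSO, 40.1 and 45.9 CPM at 0.2 μM and 45.4 CPM at 0.34 μM. The groups did not overlap, but the log2 fold change of 0.29 (standard error 0.15) did not pass (edgeR adjusted p of 0.250). In the COS and fibronectin class, which binds microtubules, 3 of 8 members were tested and none was called, with log2 fold changes of -0.20 to 0.67. In the PRY-SPRY class 20 of 35 members were tested. TRIM22 was called higher in edgeR, TRIM22 and TRIM35 in DESeq2, and the class had 11 positive and 9 negative changes with a median of 0.08. Of the 10 members without one of these C-terminal domains 5 were tested, with no call and a median of 0.06.

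The remaining class has C-terminal domains found in single members or transmembrane segments, and it comprises TRIM13, TRIM23, TRIM37, TRIM45 and TRIM59. Apart from TRIM59 none was called. TRIM23, which carries an ARF GTPase domain, was at 13.8 and 15.2 CPM in DMSO, 16.2 and 20.2 CPM at 0.2 μM and 18.1 CPM at 0.34 μM, without overlap, for a difference of 0.32 on the log2 scale (standard error 0.18, edgeR adjusted p of 0.286). TRIM13, a ligase of the endoplasmic reticulum, was at 20.3 and 25.3 CPM in DMSO, 27.5 and 24.8 CPM at 0.2 μM and 25.9 CPM at 0.34 μM, with overlapping groups and a difference of 0.19 on the log2 scale (standard error 0.17). TRIM45, with a filamin domain, was at 3.78 and 3.68 CPM in DMSO, 2.75 and 2.04 CPM at 0.2 μM and 3.64 CPM at 0.34 μM. It lay below DMSO in every doxorubicin library, by little at 0.34 μM, and its log2 fold change of -0.40 had a standard error of 0.32.

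Members linked to centrosomes or cell division are TRIM36, TRIM37, TRIM39, TRIM59 and TRIM69. Of these 5, 4 were tested and all had a negative log2 fold change, between -1.21 and -0.05, with a median of -0.18, where 48.9% of all genes tested were negative. TRIM59 was called lower in DESeq2 and the other 3 were called in neither tool. TRIM37, which restrains centriole formation, was at 65.4 and 64.8 CPM in DMSO, 56.4 and 63.7 CPM at 0.2 μM and 55.2 CPM at 0.34 μM. The groups were apart by little, and the log2 fold change was -0.16 with a standard error of 0.14. TRIM36, a microtubule-associated ligase, was at 2.86 and 3.96 CPM in DMSO, 2.44 and 3.49 CPM at 0.2 μM and 2.95 CPM at 0.34 μM, with overlapping groups and a log2 fold change of -0.20 (standard error 0.31).

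Among the other genes of high level, TRIM44, a member that carries a zinc finger of ubiquitin proteases in place of a RING finger, was at 253 and 230 CPM in DMSO, 189 and 218 CPM at 0.2 μM and 181 CPM at 0.34 μM. The groups did not overlap, and the log2 fold change of -0.30 (standard error 0.15) did not pass (edgeR adjusted p of 0.235). TRIM27, a ligase of endosomal sorting, was at 49.2 and 58.6 CPM in DMSO, 56.4 and 52.4 CPM at 0.2 μM and 56.3 CPM at 0.34 μM, with overlapping groups and a difference of 0.03 on the log2 scale (standard error 0.15). Both genes were thus within 0.5 of 0 on the log2 scale.

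Several members lie close together on the short arm of chromosome 11, and TRIM22 and TRIM3 are among them. TRIM22 spans chr11:5689790-5710863 and TRIM3 spans chr11:6448613-6474459 (GRCh38.p14), their start coordinates being 759 kb apart. TRIM44 lies farther along the same arm, with the log2 fold change of -0.30 given above. Relative to the start coordinate of TRIM22, the lower coordinate of TRIM5 lies at -101 kb and that of TRIM6 at -93.7 kb. They had log2 fold changes of 0.23 and -0.85. TRIM5 extends to position 5685074 and TRIM6 to 5612952, so TRIM5 reaches closer to TRIM22. TRIM34, which begins at -69.8 kb, had 5 and 8 counts in DMSO, 7 and 9 at 0.2 μM and 10 at 0.34 μM and was not tested. TRIM6, an antiviral ligase, was at 11.8 and 7.68 CPM in DMSO, 5.61 and 5.86 CPM at 0.2 μM and 4.74 CPM at 0.34 μM. Its groups did not overlap, but it did not pass in edgeR (adjusted p of 0.0787) or DESeq2 (adjusted p of 0.0296). TRIM6 overlaps TRIM5, which lies on the opposite strand. Farther away, TRIM21, TRIM68 and TRIM66 had log2 fold changes of 0.51, -0.08 and 0.37.

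**Figure D3:**
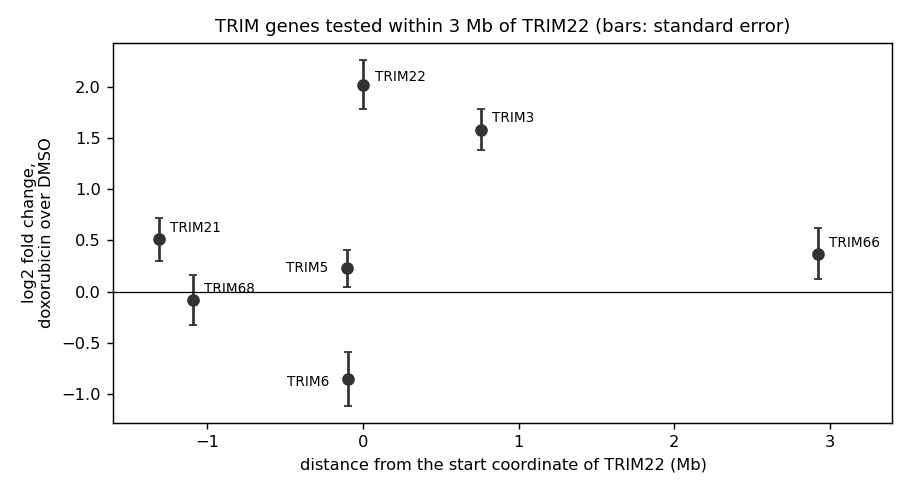
Log2 fold change of doxorubicin over DMSO with bars of 1 standard error (y axis) of the 7 TRIM genes tested whose start lies within 3 Mb of that of TRIM22 on chromosome 11, against the distance of their start coordinates from that of TRIM22 (x axis, Mb). TRIM22 at 2.02 and TRIM3 at 1.58 stand above their neighbours. TRIM6 at -0.85 and TRIM5 at 0.23 have the start coordinates nearest to that of TRIM22 among the genes shown.

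Of the members that stand out, 2 overlap a gene that was itself higher after doxorubicin. TRIM32 (chr9:116687305-116701299) lies inside ASTN2, a gene of neuronal migration on the opposite strand. ASTN2 had 68 and 94 counts in DMSO, 436 and 473 at 0.2 μM and 656 at 0.34 μM, a log2 fold change of 2.53 with a standard error of 0.24 (edgeR adjusted p of 0.002). In CPM, ASTN2 was at 2.59 and 3.68 in DMSO, 16.9 and 19.7 at 0.2 μM and 18.1 at 0.34 μM. The kit marks strand, but no source used here says whether the counting did, and without strand the reads of the 2 genes cannot be told apart in the shared stretch.

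TRIM35, a PRY-SPRY ligase called in DESeq2 alone, was at 12.5 and 17.1 CPM in DMSO, 31.3 and 31.7 CPM at 0.2 μM and 38.4 CPM at 0.34 μM. The groups did not overlap, and the mean went from 14.8 ± 3.26 CPM (SD, n = 2) to 33.8 ± 3.97 CPM (SD, n = 3). Its log2 fold change was 1.19 with a standard error of 0.21, and the adjusted p was 0.0149 in edgeR and 1.62e-05 in DESeq2. TRIM35 overlaps PTK2B, a focal adhesion kinase gene that had 125 and 55 counts in DMSO, 289 and 259 at 0.2 μM and 538 at 0.34 μM. PTK2B had a log2 fold change of 1.82 with a standard error of 0.38, with an adjusted p of 0.0262 in edgeR and 5.28e-05 in DESeq2. The part of overlapping reads in the change of TRIM32 or TRIM35 was not tested.

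**Figure D4:**
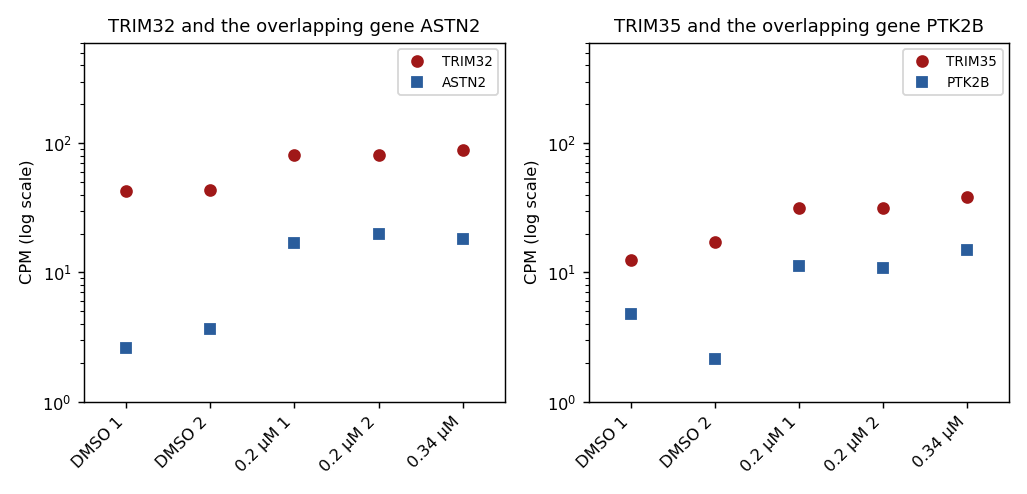
CPM on a log scale (y axis) of TRIM32 with ASTN2 and of TRIM35 with PTK2B in each library (x axis). Both genes of each pair lie higher in the 3 doxorubicin libraries than in the 2 DMSO libraries, and the TRIM gene has the higher level throughout.

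The fifth largest positive change among the members belonged to TRIM61, which had 41 and 4 counts in DMSO, 63 and 3 at 0.2 μM and 81 at 0.34 μM. The libraries numbered 2 were low in both treatments, so the log2 fold change of 0.90 had a standard error of 1.18 and went from 0.03 to 3.33 as single libraries were left out. To compare libraries that share no sample, the log2 ratio of 0.2 μM over DMSO was taken within the libraries numbered 1 and within those numbered 2. The signs matched in 24 of 40 members (60%), beside 68.3% of all genes. Both ratios exceeded 0.5 in TRIM22 (1.56 and 2.50), TRIM3 (1.45 and 1.50), TRIM32 (0.93 and 0.89) and TRIM35 (1.32 and 0.88), and both were below -0.5 in TRIM59 alone (-1.12 and -1.01). These are 10% and 2.5% of the members, beside 11.6% and 10.6% of all genes, so that the family held no excess of them. TRIM28 had ratios of 0.56 and -0.44, and TRIM24 of -1.16 and -0.30.

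**Figure D5:**
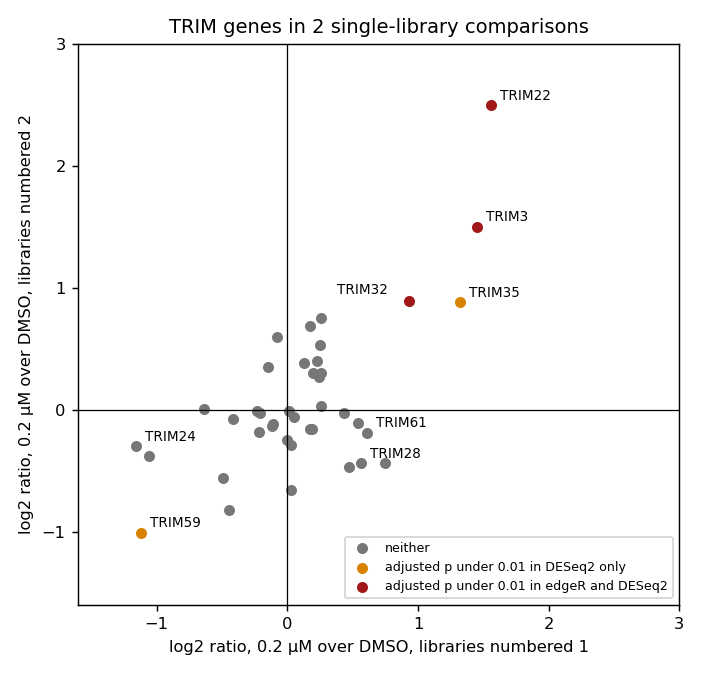
Log2 ratio of 0.2 μM doxorubicin over DMSO (pseudocount of 0.1 CPM) in the libraries numbered 1 (x axis) and in those numbered 2 (y axis) for the 40 TRIM genes tested, coloured by the tool that called them. TRIM22, TRIM3, TRIM32 and TRIM35 lie to the upper right and TRIM59 to the lower left, and TRIM28 has opposite signs.

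The doses were then compared. Against DMSO, the log2 fold changes at 0.2 and 0.34 μM were 2.05 and 1.95 for TRIM22, 1.48 and 1.76 for TRIM3, 0.91 and 1.03 for TRIM32, 1.09 and 1.37 for TRIM35 and -1.07 and -1.54 for TRIM59. The 2 sets share the DMSO libraries. No member differed between the doses in edgeR, DESeq2 or limma voom, and none reached an unadjusted p under 0.05 in any of them. Of all genes, 0% were called, with 22, 26 and 14 genes at an unadjusted p under 0.05 in edgeR, DESeq2 and limma voom. The members with the smallest unadjusted p from edgeR were TRIM59 with a difference of 0.34 minus 0.2 μM of -0.48 (standard error 0.32), TRIM45 with 0.60 (standard error 0.49) and TRIM55 with 0.76 (standard error 0.71). With a single library at 0.34 μM, whose spread was taken from the other groups, such differences were not detectable.

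Of 7 relatives under other names, 5 were tested, none was called, and the log2 fold changes ran from 0.09 to 3.88. PML (TRIM19), the organiser of nuclear bodies, had 87.6 ± 10.4 CPM in DMSO (SD, n = 2) and 123 ± 9.10 CPM after doxorubicin (SD, n = 3). Its log2 fold change of 0.49 (standard error 0.15) did not pass in edgeR (adjusted p of 0.0771) or DESeq2 (adjusted p of 0.0255). The midline ligases MID1 (TRIM18) and MID2 (TRIM1) had log2 fold changes of 0.09 (standard error 0.19) and 0.17 (standard error 0.32). TRIML2, named after its values were seen, had the largest value, 3.88, from 3 and 32 counts in DMSO, 62 and 566 at 0.2 μM and 161 at 0.34 μM, with a standard error of 1.31. Of 12 ubiquitin-conjugating E2 enzymes that could serve such ligases, none passed in edgeR and UBE2E3 was lower in DESeq2, at -0.66 on the log2 scale. DESeq2 called 8.00% of all genes lower. The log2 fold change was negative in 10 of the 12, with a median of -0.34, and in 48.9% of all genes tested.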

How the data were processed

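RNA-seq was analysed from the gene counts deposited by the authors, who aligned paired-end reads with STAR (hg38) and assigned them to iGenomes genes with Rsubread featureCounts. The authors' table of differential expression (normalized means, fold changes and p-values by DESeq2) was not used. Counts were tested in R 4.3.3 with edgeR 4.0.16 (quasi-likelihood, TMM, filterByExpr with a minimum count of 10 and total of 15, which kept 14187 genes), 3 doxorubicin against 2 DMSO libraries, with Benjamini-Hochberg adjustment over all genes tested and a threshold of 0.01. DESeq2 1.42.0, limma 3.58.1 (voom), other filters and normalizations, single doses, a replicate block and leaving out each library were alternatives. Members and gene lists were chosen with earlier results of these data known, and the lists come from general knowledge. From the list of interferon-stimulated genes, 1 gene was left out after its values were known and is not reported here, so counts over that list cover the other 11. CPM is TMM-normalized. Transcript lengths are from GENCODE and positions and promoters from RefSeq. Chi-square per degree of freedom between libraries of one condition was 117 (DMSO) and 75.3 (0.2 μM), far above sampling noise, so each was kept as a replicate. The comparison of 3 doxorubicin with 2 DMSO libraries was first tested on simulated data in edgeR, DESeq2 and limma voom. The other fits were not. Genes named with values are those called in edgeR or DESeq2, the 5 largest changes in each direction, the 3 smallest p between doses, the 5 highest levels per kb, and fixed examples of each class. Members also named for their position, promoter or shared motif were chosen after their values were seen.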

Additional observations from a re-analysis of the deposited data

How the results depend on the processing

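The 3 members called higher became 0 when 0.2 μM or 0.34 μM alone was compared with DMSO (the latter chosen after seeing the data) and 0 to 1 when single libraries were left out, the 1 being TRIM22, while fewer libraries entered each test. The count was 3 with limma voom and with DESeq2 size factors, and 4 with DESeq2, without a filter, with a replicate block and at a threshold of 0.05. The members called lower were 0, and 1, TRIM59, in DESeq2, without a filter, with the block and at 0.05. The block on the replicate number kept the 0.34 μM library as a condition of its own and compared 0.2 μM alone with DMSO. That comparison called 0 members higher without the block and 4 with it. With the block the log2 fold changes were 2.03 for TRIM22, 1.48 for TRIM3, 0.91 for TRIM32, 1.10 for TRIM35 and -1.07 for TRIM59. Outside the family the block also brought TRIML2 (log2 fold change 4.25), ISG15, STAT2 and TMEM173 past the threshold. Their edgeR adjusted p-values were 5.6e-09, 0.00143, 0.00317 and 0.00418. The block fit has 4 terms for 5 libraries, so little of a gene's own spread enters its p-value. Without the block, TRIML2 at 0.2 μM had an edgeR adjusted p of 0.134. The share of all genes past the threshold with the block is not given here. The replicate numbers share no stated origin. Even so, the difference between the libraries numbered 1 and 2 correlated between DMSO and 0.2 μM (r = 0.528 over 14187 genes). The genes are not independent. The median of 0.05 became 0.22 without a filter. The log2 ratio of the family's summed CPM was 0.18, and 0.15 or 0.17 under other scalings. The change of TRIM28, -0.03, was 0.05 in limma voom, 0.06 with the block and -0.45 to 0.53 as libraries were left out. Under the same omissions TRIM25 ran from -0.38 to 0.20, TRIM27 from -0.10 to 0.14 and TRIM36 from -0.43 to 0.03. Of 311 values of 26 named members under the alternatives, 279 kept direction and side of the threshold, 20 no longer passed, 6 newly passed and 6 reversed. The cause was not tested. With 2 and 3 libraries, small fold changes could not be resolved.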
